A study of Arabidopsis thaliana with 17 samples.

Results

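Expansins are plant cell wall proteins that loosen the wall at acidic pH, without cutting its polymers, and so let a turgid cell enlarge. The family has 2 branches with shown wall-loosening members, the alpha-expansins (EXPA), which act in most growing tissues, and the beta-expansins (EXPB), and 2 branches known from their sequence, the expansin-like A (EXLA) and expansin-like B (EXLB) proteins, whose activity is unclear. Growing leaves express several members at once, while others are known from single cell types, such as EXPA7 and EXPA18 in root hairs. The members described here are the 18 genes whose annotated symbol on the array marks them as expansins or expansin-like, each with 1 probe set assigned to that gene alone. They are 18 of 13356 genes with such a probe set, and consist of 10 EXPA, 4 EXPB, 3 EXLA and 1 EXLB genes. A RefSeq gene table lists 38 Arabidopsis genes with an expansin symbol or synonym. Another 2 probe sets, shared by EXP26 and EXPA22 and by EXPA25 and EXPA23, were left out because they cannot tell the genes apart.

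The RNA came from rosette leaves of Arabidopsis thaliana at an age of 4 weeks, hybridized to ATH1 arrays. Each of the 17 arrays held 1 pool of 10 plants. There were 7 genotypes. Wild-type leaves came from Col-0 (3 arrays) and from Wassilewskija (2). Leaves with 1 mutation carried stn7-1 (3), psad1-1 (2) or psae1-3 (2), and leaves with both a photosystem I and the kinase mutation were psad1-1 stn7-1 (3) or psae1-3 stn7-1 (2). STN7 is a thylakoid protein kinase needed for state transitions and for slower acclimation to light quality. PSAD and PSAE are photosystem I proteins on the stromal side, where they form the docking site of ferredoxin. Col-0, stn7-1, psad1-1 and psad1-1 stn7-1 form a first array set (11 arrays) and Wassilewskija, psae1-3 and psae1-3 stn7-1 a second one (6 arrays), told apart by the scale of the deposited signals. Since the sets have no genotype in common, an accession difference and a set difference cannot be told apart, and each mutant was compared with the wild type of its own set. The parent line of each mutant is not named in the labels, nor is it said that the pools were grown apart, so the tests measure the spread between these pools. Fewer cells of a type and less RNA per cell cannot be told apart in such whole-leaf pools.

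Facts on the arrays as a whole are few. Correlations over the tested probe sets were 0.962 to 0.983 within a genotype (13 pairs) and 0.770 to 0.897 across the sets (66 pairs). Between different genotypes of the same set they were 0.859 to 0.982 (57 pairs), which overlaps with the range within a genotype. PSAE-1 (AT4G28750) read 5.25 to 63.2 in the 4 arrays that carry psae1-3 and 3253 to 5105 in the other 13. STN7 and the PSAD genes were not checked here. The leaf markers with a probe set (RCA, LHCB4.1 and PSAN, 3 of 15 listed) read 2616 or more in every array, and their sum ranged from 9866 to 13583 over first-set arrays and from 16627 to 18211 over second-set arrays. Of the other marker lists, the guard cell gene FMA (1 of 7 epidermal markers) read 34.0 to 64.5 and the root gene PYK10 (1 of 8 root markers) 0.654 to 576. The lists of dividing cells, inflorescence and phloem (19, 9 and 3 genes) had no single-gene probe set in the table used here.

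Signals below are MAS5 values scaled to a trimmed mean of 100 per array, and 8.15 is taken as background, the 95th percentile of control probe sets without a target. That value rests on 315 readings, of which 18 come from the second set. Levels of different probe sets cannot be compared, so each gene is compared only with itself. A call is an adjusted p under 0.05 from limma (Benjamini-Hochberg over all 13648 tested probe sets). The 60% of probe sets with the highest mean were tested, which took in 9 of the 18 members: EXPA4, EXPA8, EXPA9, EXPA15, EXPA16, EXPB1, EXPB3, EXLA1 and EXLB1. All 9 lay above background in all 17 arrays, though EXLA1 only just in psae1-3, at 8.15 and 8.26. EXPA9, with a mean of 4.44 log2, was just inside the limit of 4.22, and EXLA2, at 4.14, just outside it.

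**Figure D1:**
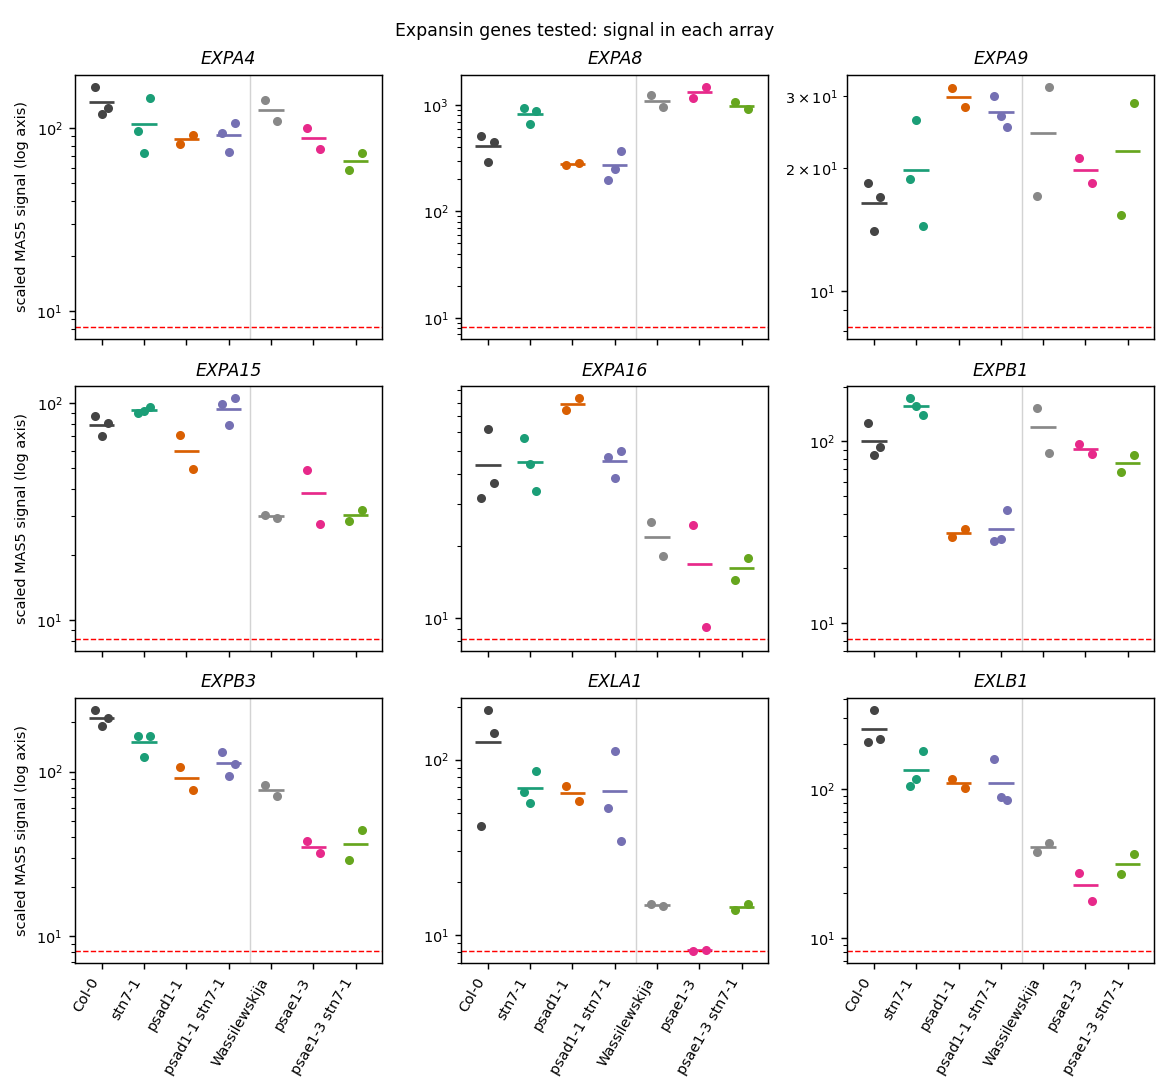
Scaled MAS5 signal (log axis) of the 9 tested expansin genes in each of the 17 arrays, by genotype. Points are arrays, bars are genotype means, the red dashed line is the background of 8.15, and the grey line divides the 2 array sets. EXPB1 lies at 28.1 to 41.9 in the 5 arrays with psad1-1 and at 67.8 or more in the other 12.

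Against Col-0, the beta-expansin genes EXPB1 and EXPB3 and the expansin-like gene EXLB1 fell in leaves with psad1-1. The alpha-expansin genes EXPA4 and EXPA9 moved in opposite directions. Of these genes only EXPB1 also passed between psad1-1 stn7-1 and stn7-1. Between psad1-1 and Col-0, 5 of the 9 tested members passed, 1 higher and 4 lower. A second member, EXPA16, missed the limit narrowly and was called higher under 5 of 8 alternative settings, given with its values below. Of all tested probe sets 40.5% passed, 19.3% higher and 21.1% lower, so the share of members higher is below and that of members lower above the array as a whole, in a list of only 9. The median change of the members was −0.66 log2, against −0.02 log2 for all tested probe sets. Between psad1-1 stn7-1 and Col-0, 6 of 9 passed, 1 higher and 5 lower, against 40.8% of all probe sets (19.2% higher, 21.6% lower), with a median of −0.61 log2 against −0.02 log2. Both comparisons share the Col-0 arrays. Beside these results, the root marker PYK10 read 208 to 359 in psad1-1 and 442 to 576 in psad1-1 stn7-1, against 19.2 to 37.1 in Col-0 and 29.7 to 60.4 in stn7-1. PYK10 was the only 1 of 8 listed root markers with a probe set. The root hair genes EXPA7 and EXPA18, given below, did not pass in psad1-1 in a fit without the filter. The part of PYK10 in the expansin results was not tested.

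EXPB1 (AT2G20750), a beta-expansin gene, changed most among the tested members. It read 126, 84.4 and 92.5 in Col-0 replicates A, B and C, and 29.8 and 32.8 in psad1-1 replicates A and B. In psad1-1 stn7-1 it read 28.1, 28.9 and 41.9. All 5 arrays with psad1-1 lay below all 3 Col-0 arrays. The change was −1.67 log2 in psad1-1 (SE 0.23, adjusted p = 3.7e-05) and −1.62 log2 in psad1-1 stn7-1 (SE 0.21, adjusted p = 1.49e-05), or 3.18-fold and 3.07-fold lower. EXPB1 stayed a call under each alternative and with any 1 array left out.

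EXPB3 (AT4G28250), the other tested beta-expansin gene, fell in both lines with psad1-1. Its signals were 236, 189.6 and 211 in Col-0, 107 and 77.4 in psad1-1, and 131, 94.2 and 112 in psad1-1 stn7-1. The groups did not overlap with Col-0. In psad1-1 the change was −1.22 log2 with an SE of 0.21 (adjusted p = 0.000206). In psad1-1 stn7-1 it was −0.92 log2 with an SE of 0.18 (adjusted p = 0.000757). Set against stn7-1, the double mutant stood at −0.42 log2 (adjusted p = 0.104), with overlapping arrays.

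EXLB1 (AT4G17030), an expansin-like B gene, read 208, 338 and 215 in Col-0. It read 117 and 101 in psad1-1 and 159, 88.0 and 83.9 in psad1-1 stn7-1, all below the lowest Col-0 array. The psad1-1 change was −1.19 log2 (SE 0.30, adjusted p = 0.00482). The double mutant had one of −1.23 log2 (SE 0.27, adjusted p = 0.00152). Set against stn7-1, itself lower than Col-0, the double mutant stood at −0.31 log2 (adjusted p = 0.434), with overlapping arrays. The call in psad1-1 was lost without psad1-1 replicate B (−1.08 log2, adjusted p = 0.0516).

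The alpha-expansin gene EXPA4 (AT2G39700) read 168, 118 and 128 in Col-0 and 81.7 and 91.4 in psad1-1. In psad1-1 stn7-1 it read 93.9, 73.9 and 107. No array with psad1-1 reached the lowest Col-0 array, but the margin was small. The psad1-1 change of −0.66 log2 (SE 0.25, adjusted p = 0.0433) was near the limit. So was the double mutant's, of −0.59 log2 (SE 0.22, adjusted p = 0.0421). Set against stn7-1, the double mutant stood at −0.15 log2 (adjusted p = 0.661), with overlapping arrays. In psad1-1 the call was lost without Col-0 replicate A (adjusted p = 0.14), Col-0 replicate C (0.0634), psad1-1 replicate A (0.185) or psad1-1 replicate B (0.102), and with the replicate letter as a block (0.068). In psad1-1 stn7-1 it was lost without Col-0 replicate A (0.163), Col-0 replicate C (0.0651), and replicates A (0.0723) or B (0.17) of the double mutant. In psad1-1 and psad1-1 stn7-1, respectively, both calls also ended without the level filter (0.103 and 0.102), with arrays scaled to their medians (0.124 and 0.0993), with only the first set in the fit (0.0531 and 0.0518) and without a variance trend (0.0554 and 0.054). Quantile normalization ended the one in psad1-1 stn7-1 (0.0624).

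EXPA9 (AT5G02260) was called higher in both lines with psad1-1. It read 18.4, 14.0 and 16.9 in Col-0, 31.4 and 28.2 in psad1-1, and 30.0, 26.8 and 25.2 in psad1-1 stn7-1, with no overlap between Col-0 and either mutant. In stn7-1 it read 18.8, 26.2 and 14.4, which overlaps with the double mutant, and the double mutant did not pass against stn7-1 (0.51 log2, adjusted p = 0.207). The rise was 0.87 log2 in psad1-1 (SE 0.32, adjusted p = 0.0392) and 0.74 log2 in the double mutant (SE 0.28, adjusted p = 0.0478). The psad1-1 call ended without Col-0 replicate B (adjusted p = 0.105) or C (0.0661) or psad1-1 replicate A (0.161) or B (0.106), with the replicate letter as a block (0.0757), or without the level filter (0.0817). The psad1-1 stn7-1 call ended when any 1 of the 6 arrays was left out, with the block (0.0534), and without the filter (0.0964). Adjusted p was 0.057, 0.144 and 0.0829 without Col-0 replicates A, B and C, and 0.128, 0.0896 and 0.0726 without replicates A, B and C of the double mutant.

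EXPA16 (AT3G55500), another alpha-expansin gene, read 74.5 and 83.4 in psad1-1, above the Col-0 arrays at 31.8, 62.3 and 36.8. In psad1-1 stn7-1 it read 47.1, 38.6 and 50.3, within the Col-0 range. In stn7-1 it read 57.1, 44.2 and 34.0, also within it. It stood at 0.92 log2 in psad1-1 (SE 0.36), at the limit of the test (adjusted p = 0.0501), and at 0.11 log2 in psad1-1 stn7-1 (adjusted p = 0.821). In psad1-1 it passed under scaling to the array median (adjusted p = 0.028), quantile normalization (0.0241), 16 added to each signal (0.0161), a floor at background (0.047) and with only the first set in the fit (0.0165). It did not pass without the filter (0.121), without a trend (0.0563) or with the replicate block (0.0944). With 1 array left out it passed in 1 of 5 fits, without Col-0 replicate B (0.0154). Between the double mutant and psad1-1 it stood at −0.81 log2 (95% interval −1.56 to −0.05, adjusted p = 0.27).

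EXPA15 (AT2G03090) and EXLA1 (AT3G45970) passed in no comparison. EXPA15 read 49.6 and 70.7 in psad1-1 and 70.4 to 86.7 in Col-0 (−0.42 log2, adjusted p = 0.129). The psad1-1 stn7-1 arrays of EXPA15 (79.2 to 105) were above both psad1-1 arrays (0.66 log2, adjusted p = 0.126). EXLA1 ranged from 42.0 to 191 among the 3 Col-0 arrays alone, a spread that covers its signals in stn7-1 (56.9 to 85.6) and psad1-1 (57.9 to 70.6). Its 95% interval in psad1-1 runs from −1.76 to 0.34 log2.

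**Figure D2:**
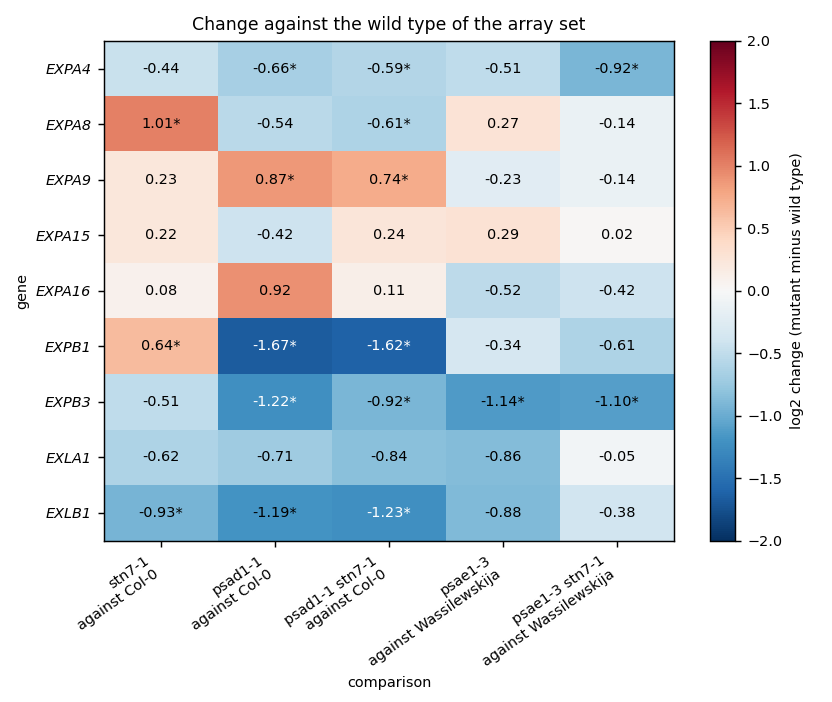
Log2 change of the 9 tested expansin genes (rows) in each mutant against the wild type of its array set (columns). Blue is lower and red higher in the mutant, and a star marks an adjusted p under 0.05; EXPB3 has a star in 4 of the 5 columns, the exception being stn7-1 at −0.51 log2.

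In psae1-3 the only tested member that passed was EXPB3, which was 1 of 9, against 12.3% of all probe sets (5.41% higher, 6.9% lower). The members had a median of −0.51 log2 against −0.11 log2 for all probe sets. In psae1-3 stn7-1, 2 of 9 passed, EXPB3 and EXPA4, both lower, against 16.2% of all probe sets (7.43% higher, 8.79% lower), with medians of −0.38 and −0.05 log2. EXPB3 read 82.7 and 71.6 in Wassilewskija, 37.8 and 32.2 in psae1-3, and 29.2 and 44.0 in psae1-3 stn7-1. The mutant arrays did not reach the wild-type arrays. In psae1-3 the change was −1.14 log2 with an SE of 0.23 (adjusted p = 0.0044). In psae1-3 stn7-1 it was −1.10 log2 with an SE of 0.23 (adjusted p = 0.00309). The latter call was lost without psae1-3 stn7-1 replicate A (−0.81 log2, adjusted p = 0.0574).

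EXPA4 read 141 and 109 in Wassilewskija, 99.5 and 76.5 in psae1-3, and 58.7 and 72.7 in psae1-3 stn7-1. Its signals in both mutants were below both Wassilewskija arrays. It stood at −0.51 log2 in psae1-3 (adjusted p = 0.235) and in psae1-3 stn7-1 it fell by 0.92 log2 (SE 0.27, adjusted p = 0.0284). This call was lost without Wassilewskija replicate A (adjusted p = 0.179), psae1-3 stn7-1 replicate A (0.175) or B (0.0535), without the filter (0.0704), and under scaling to the array median (0.0524). Without psae1-3 stn7-1 replicate A no member passed in this comparison, and without Wassilewskija replicate A only 1 did.

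The remaining tested members did not pass against Wassilewskija. EXLB1 read 37.8 and 43.4 in Wassilewskija and 27.4 and 17.7 in psae1-3, a value of −0.88 log2 (adjusted p = 0.0894), and 26.6 and 36.4 in psae1-3 stn7-1. EXLA1 read 15.2 and 14.7 in Wassilewskija and 8.15 and 8.26 in psae1-3, at the background (−0.86 log2, adjusted p = 0.316). EXPB1 read 152 and 86.5 in Wassilewskija, 97.0 and 84.6 in psae1-3, and 67.8 and 84.0 in psae1-3 stn7-1. Its values of −0.34 log2 (adjusted p = 0.408) and −0.61 log2 (adjusted p = 0.122) did not pass. EXPA9 read 17.03 and 31.6 in Wassilewskija, 21.1 and 18.4 in psae1-3, and 15.3 and 28.8 in psae1-3 stn7-1, so that the wild-type arrays alone spanned nearly all mutant arrays. EXPA16 read 25.4 and 18.3 in Wassilewskija, 24.5 and 9.15 in psae1-3, and 14.5 and 17.8 in psae1-3 stn7-1. EXPA8, EXPA9 and EXPA15 stood within 0.29 log2 of Wassilewskija in both mutants.

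Both mutations affect docking subunits of photosystem I, so the difference between the psad1-1 change and the psae1-3 change was tested for each member. Only EXPB1 passed, 1 of 9, against 19.4% of all probe sets (11% higher, 8.4% lower). EXPB1 was lower by a further 1.33 log2 in psad1-1 than in psae1-3 (difference −1.33 log2, 95% interval −2.06 to −0.59, adjusted p = 0.0132). Without Wassilewskija replicate B the difference was −0.92 log2 (adjusted p = 0.0771), and no member passed. Leaving out Col-0 replicate B gave 3 members that passed, and leaving out Wassilewskija replicate A, psae1-3 replicate A or psae1-3 replicate B gave 2. The EXPB3 changes differed by −0.07 log2 (95% interval −0.72 to 0.57, adjusted p = 0.9), an interval that leaves room for a difference of up to 0.72 log2. EXPA16 and EXPA9 had the highest differences, 1.44 log2 (95% interval 0.32 to 2.56, adjusted p = 0.0665) and 1.10 log2 (95% interval 0.10 to 2.10, adjusted p = 0.115). The mutants were measured in different array sets, which cancel in this contrast only as far as a set shifts all its genotypes alike.

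**Figure D3:**
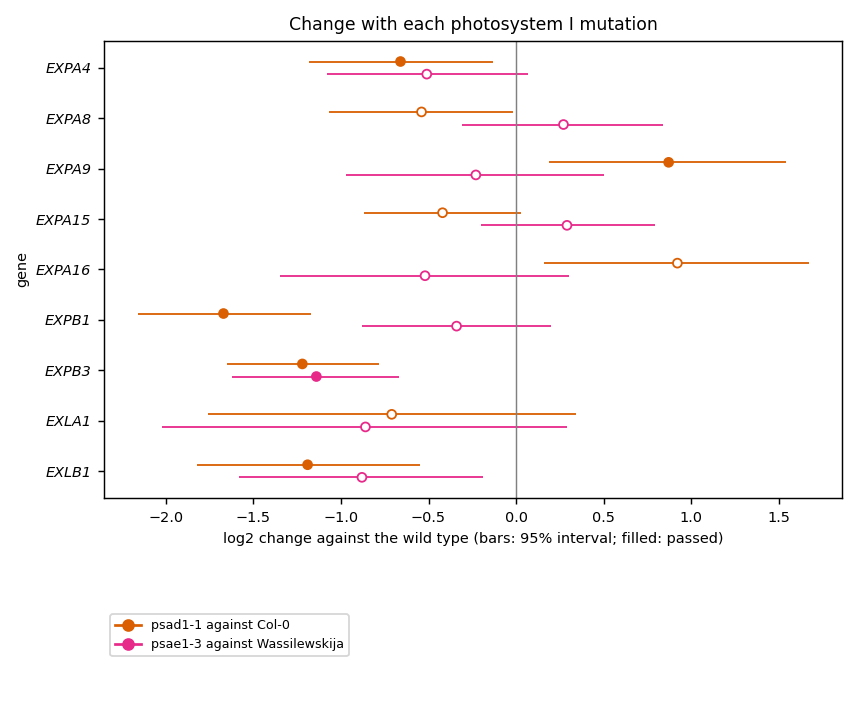
Log2 change of the 9 tested expansin genes in psad1-1 against Col-0 (orange) and in psae1-3 against Wassilewskija (pink). Lines are 95% intervals and filled points passed the test; the points of EXPB3 lie close together (−1.22 and −1.14 log2) and those of EXPB1 apart (−1.67 and −0.34 log2).

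In stn7-1, EXPA8 and EXPB1 rose and EXLB1 fell. Of 9 tested members 3 passed, 2 higher and 1 lower, against 18.9% of all probe sets (9.74% higher, 9.17% lower). The median of the members was 0.08 log2, against −0.03 log2 for all probe sets. EXPA8 (AT2G40610), an alpha-expansin gene, read 506, 293 and 448 in Col-0 and 930.4, 668 and 883 in stn7-1. Every stn7-1 array was above every Col-0 array. The rise was 1.01 log2 (SE 0.22, adjusted p = 0.00567), or 2.02-fold, and it remained a call under each alternative and with any 1 array left out.

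EXPB1 read 172, 155 and 139 in stn7-1, above the 84.4 to 126 of Col-0. This rise of 0.64 log2 (SE 0.21, adjusted p = 0.0426) was lost without Col-0 replicate B (adjusted p = 0.165) or C (0.123), without stn7-1 replicate A (0.134), B (0.103) or C (0.0502), with the replicate letter as a block (0.0512), without the filter (0.103) and without a trend (0.0546). EXLB1 read 104, 117 and 181 in stn7-1, below the 208 to 338 of Col-0. Its change of −0.93 log2 (SE 0.27, adjusted p = 0.0243) was lost without Col-0 replicate B (0.124), stn7-1 replicate A (0.102) or stn7-1 replicate B (0.0875). It was also lost without the filter (0.0768), and with any 1 of those 3 arrays left out only 1 member, EXPA8, passed. EXPB3 read 164, 122 and 165 in stn7-1, all below Col-0, and stood at −0.51 log2 (adjusted p = 0.0651). EXPA4 (96.3, 72.7 and 145) overlapped with Col-0 and stood at −0.44 log2 (adjusted p = 0.178).

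With a photosystem I mutation present, the stn7-1 mutation gave no call among the tested members. Between psad1-1 stn7-1 and psad1-1 the count by limma was 0 of 9, with 2 at an unadjusted p under 0.05, against 2.09% of all probe sets (1.23% higher, 0.857% lower). Between psae1-3 stn7-1 and psae1-3 it was 0 of 9, with 0 at an unadjusted p under 0.05, against 12.3% of all probe sets (7.48% higher, 4.81% lower). The EXPA8 signals were 199, 253 and 372 in psad1-1 stn7-1 and 274 and 283 in psad1-1. They were 1059 and 921 in psae1-3 stn7-1, 1158 and 1492 in psae1-3, and 1254 and 949 in Wassilewskija. The change with stn7-1 was thus 1.01 log2 in Col-0, −0.07 log2 in psad1-1 (95% interval −0.60 to 0.46, adjusted p = 0.928) and −0.41 log2 in psae1-3 (95% interval −0.99 to 0.16, adjusted p = 0.376).

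The difference between these stn7-1 changes was tested as an interaction. In the psad1-1 background EXPA8 was the only member that passed, 1 of 9, against 11.8% of all probe sets (5.8% higher, 6% lower). Its interaction was −1.08 log2 (95% interval −1.79 to −0.38, adjusted p = 0.0452). The call was lost without Col-0 replicate B (adjusted p = 0.0944) or C (0.0607), stn7-1 replicate A (0.0966) or C (0.078), psad1-1 replicate A (0.0841) or B (0.147), or psad1-1 stn7-1 replicate A (0.0964) or B (0.0906), under quantile normalization (0.0545), without the filter (0.119), with only the first set in the fit (0.0611) and without a trend (0.0677). Of the 9 members 5 had a positive value in this interaction, opposite to EXPA8. EXPB3 stood at 0.80 log2 (95% interval 0.22 to 1.38, adjusted p = 0.0696) and EXLB1 at 0.88 log2 (95% interval 0.03 to 1.73, adjusted p = 0.164). In the psae1-3 background, in a contrast added after the data were seen, 2 of 9 passed, against 22.9% of all probe sets (12.2% higher, 10.7% lower). EXPA8 had a difference of −1.43 log2 (95% interval −2.17 to −0.68, adjusted p = 0.00808), which remained a call under each alternative and with any 1 array left out. EXLB1 had one of 1.43 log2 (95% interval 0.53 to 2.32, adjusted p = 0.0231), from −0.93 log2 in Col-0 and 0.50 log2 in psae1-3. It was lost without Col-0 replicate B (0.0533), stn7-1 replicate A (0.0551), psae1-3 replicate B (0.111) or psae1-3 stn7-1 replicate B (0.0942), without the filter (0.0697) and under scaling to the array median (0.0518). The number of members that passed in this contrast was 4 without Col-0 replicate A. The parent lines are not named in the labels. An accession difference between psae1-3 stn7-1 and psae1-3 therefore cannot be told apart from the change with stn7-1.

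**Figure D4:**
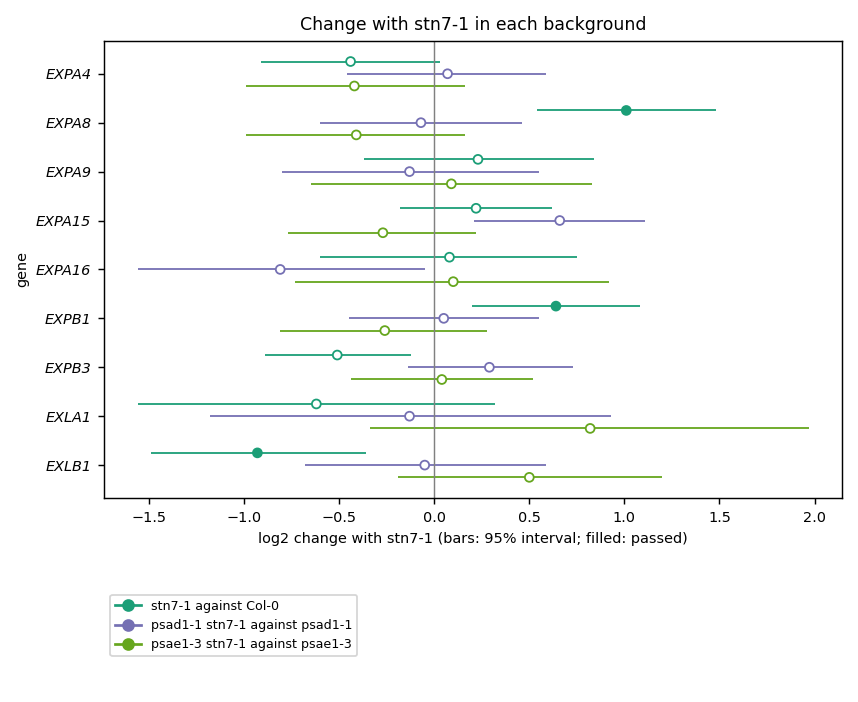
Log2 change with the stn7-1 mutation in 3 backgrounds for the 9 tested expansin genes: against Col-0 (dark green), against psad1-1 (purple) and against psae1-3 (light green). Lines are 95% intervals and filled points passed the test; EXPA8 lies at 1.01 log2 against Col-0 and at −0.07 and −0.41 log2 in the mutant backgrounds.

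Set against stn7-1, the double mutant psad1-1 stn7-1 had lower EXPB1 and EXPA8. These were 2 of 9 members, both lower, against 28% of all probe sets (13% higher, 15% lower). EXPB1 read 139 to 172 in stn7-1 and 28.1 to 41.9 in the double mutant (−2.26 log2, SE 0.21, adjusted p = 9.2e-07). EXPA8 read 668 to 930.4 and 199 to 372 (−1.62 log2, SE 0.22, adjusted p = 4.3e-05). Neither pair of groups overlapped. Against Col-0, EXPA8 fell in the double mutant by 0.61 log2 (SE 0.22, adjusted p = 0.0372) with overlapping arrays. That call was lost without Col-0 replicate A (0.153) or C (0.116), replicate A (0.187) or B (0.0945) of the double mutant, under scaling to the array median (0.077), without the filter (0.101), with only the first set in the fit (0.0506) and without a trend (0.0537). In psad1-1, EXPA8 stood at −0.54 log2 (adjusted p = 0.0939).

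Within the first set the EXPA8 means were 827 ± 140 (SD, n = 3) in stn7-1, 416 ± 110.0 (n = 3) in Col-0, 279 ± 5.91 (n = 2) in psad1-1 and 275 ± 88.3 (n = 3) in psad1-1 stn7-1. Neither psad1-1 and psad1-1 stn7-1 nor Col-0 and psad1-1, neighbours in this order, passed a test against each other. The EXPB1 means had the same order at the top, 155 ± 16.6 in stn7-1 and 101 ± 21.9 in Col-0, followed by 33.0 ± 7.72 in psad1-1 stn7-1 and 31.3 ± 2.14 in psad1-1. The EXPB3 means were 212 ± 23.3 in Col-0, 150.4 ± 24.6 in stn7-1, 113 ± 18.7 in psad1-1 stn7-1 and 92.1 ± 20.7 in psad1-1, and no neighbouring pair in that order passed a test between them where one was made (stn7-1 against Col-0, adjusted p = 0.0651; psad1-1 stn7-1 against stn7-1, 0.104; psad1-1 stn7-1 against psad1-1, 0.512).

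Across the 17 arrays, with the mean of each array set taken out, EXPA8 and EXPB1 had the highest correlation among the 9 tested members (r = 0.87). EXPA4 and EXPB3 followed (r = 0.82), then EXLB1 and EXPB3 (r = 0.76). EXPA9 and EXPB1 had the lowest (r = −0.59). Outside the family, the named genes most like EXPB1 were AT1G54820, AT5G45650 and AT1G18360 (r = 0.971, 0.951 and 0.945), and those most like EXPA8 were AT5G15050, AT5G57345 and AT2G46170 (r = 0.928, 0.902 and 0.899), out of 7345 single-gene probe sets. These values describe arrays that share genotypes and scaling.

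Several members had lower signals in the second array set than in the first. EXLB1 read 37.8 and 43.4 in Wassilewskija against 208 to 338 in Col-0, EXPB3 71.6 and 82.7 against 189.6 to 236, and EXPA15 29.6 and 30.3 against 70.4 to 86.7. EXLA1 read 14.7 and 15.2 against 42.0 to 191. EXPA8 was higher, at 949 and 1254 against 293 to 506. The means of EXPB1 (119 against 101) and EXPA9 (24.3 against 16.4) were also higher in Wassilewskija, with overlapping arrays. Whether accession or array set goes with these levels cannot be told apart.

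The 9 members under the level filter were EXPA7, EXPA18, EXPA20, EXPA21, EXPA24, EXPB2, EXPB5, EXLA2 and EXLA3. EXPA21 (AT5G39260), next to EXPA22 on its chromosome, lay below background in all 17 arrays, at 0.455 to 6.54. EXPA24 (AT5G39310), next to EXPA25, was above it in 1 array, psae1-3 stn7-1 replicate A, at 10.6. The root hair gene EXPA7 (AT1G12560) was above background in 8 of the 11 arrays of the first set and 0 of the second (0.833 to 18.6 over all arrays). EXPA18 (AT1G62980), also a root hair gene, was above it in all 11 and in 3 of 6 (4.97 to 28.3). EXPA18 read 18.8, 12.4 and 10.6 in Col-0, 19.0, 28.3 and 14.7 in stn7-1, 13.0 and 16.7 in psad1-1, and 24.2, 20.7 and 22.4 in psad1-1 stn7-1. The double mutant arrays were above Col-0 but within the range of stn7-1. No comparison of EXPA18 passed in a fit without the filter (0.73 log2 for the double mutant against Col-0, adjusted p = 0.222, and 0.17 log2 against stn7-1, adjusted p = 0.881). In psad1-1 EXPA18 stood at 0.12 log2 (adjusted p = 0.911). EXPA7 read 7.20 and 10.1 in psad1-1 and 10.9 to 17.2 in psad1-1 stn7-1, against 2.81 to 18.6 in Col-0. Its values in that fit were 0.17 log2 (adjusted p = 0.931) and 0.88 log2 (adjusted p = 0.373). PYK10, given above, was low in stn7-1 and high in both lines with psad1-1. Its part in the EXPA18 signals was not tested.

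EXPA20 (AT4G38210) was above background in all 11 arrays of the first set (9.98 to 20.9) and in 0 of the second. Its stn7-1 arrays (9.98 to 15.8) were all below its Col-0 arrays (15.95 to 19.2), and its psad1-1 stn7-1 arrays (19.7 to 20.9) all above them. Neither change passed in the fit without the filter (−0.58 log2, adjusted p = 0.595, and 0.22 log2, adjusted p = 0.867). EXPB2 (AT1G65680) was above background in 11 and 3 arrays, EXPB5 (AT3G60570) in 9 and 2, and EXLA3 (AT3G45960) in 6 and 0. EXLA2 (AT4G38400), an expansin-like A gene, read 24.3, 42.4 and 34.9 in Col-0, 25.8, 20.0 and 32.9 in stn7-1, 38.3 and 40.5 in psad1-1, and 42.3, 33.8 and 23.6 in psad1-1 stn7-1, ranges that overlap with Col-0. In the second set it read 17.6 and 11.5 in Wassilewskija, 3.26 and 5.69 in psae1-3, and 2.30 and 5.76 in psae1-3 stn7-1. All 4 mutant arrays were below background, and both wild-type arrays above it. In the fit without the filter, EXLA2 was the only one of these 9 members that passed in any comparison, lower in psae1-3 (adjusted p = 0.0483) and in psae1-3 stn7-1 (adjusted p = 0.02). That fit covered all 22810 probe sets but the 64 controls, of which 1603 passed in psae1-3 and 2353 in psae1-3 stn7-1. With a floor at background or with 16 added to each signal, 10 members were tested. The only calls against Wassilewskija were then EXPB3 in psae1-3, and EXPB3 and EXPA4 in psae1-3 stn7-1, so EXLA2 was not called. With EXLA2 signals under background set to it, Wassilewskija was at least 1.79-fold higher than either mutant.

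**Figure D5:**
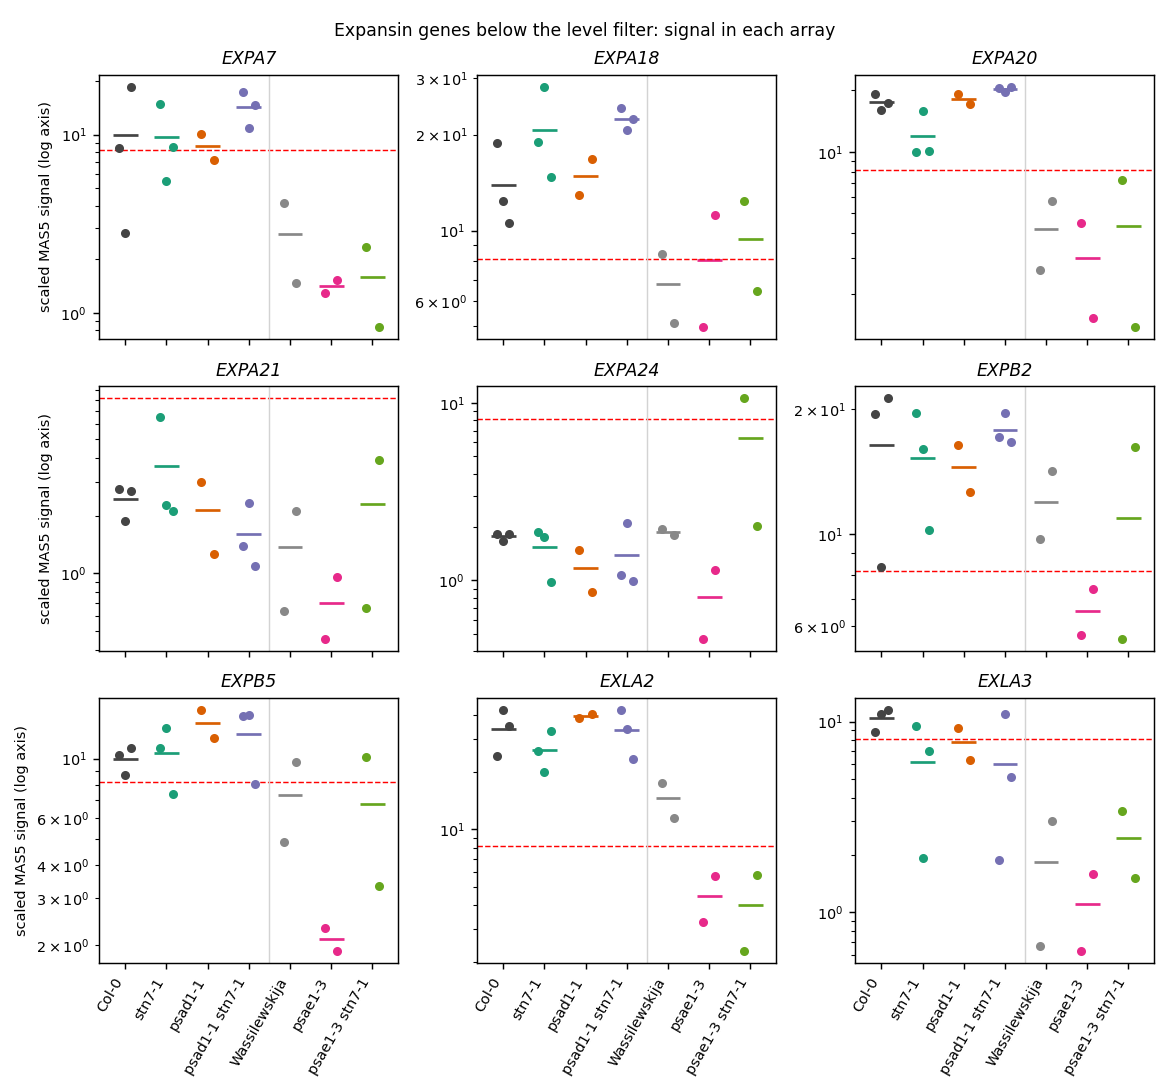
Scaled MAS5 signal (log axis) of the 9 expansin genes under the level filter in each of the 17 arrays, by genotype. Points are arrays, bars are genotype means and the red dashed line is the background of 8.15; EXPA21 lies below the line in every array, and EXLA2 crosses it between Wassilewskija and the psae1-3 lines.

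Other wall and growth genes were covered in part. Of 23 xyloglucan endotransglucosylase/hydrolase genes, whose enzymes cut and rejoin the tethers between cellulose fibrils, 8 had a probe set and 3 were tested: EXGT-A3, XTH16 and XTH32. In psad1-1 and in psad1-1 stn7-1, 1 of the 3 was higher and 1 lower, where 40.5% and 40.8% of all probe sets passed (19.3% and 19.2% higher, 21.1% and 21.6% lower). EXGT-A3 (AT2G01850) rose from a mean of 627 to one of 1511 in psad1-1 (1.28 log2, SE 0.18, adjusted p = 4.89e-05), by 0.87 log2 in psad1-1 stn7-1 (adjusted p = 0.000519) and by 0.69 log2 in psae1-3 (adjusted p = 0.0349). XTH32 (AT2G36870) fell from a mean of 549 to one of 205 in psad1-1 (−1.42 log2, SE 0.19, adjusted p = 2.57e-05). It also fell by 1.09 log2 in psad1-1 stn7-1 (adjusted p = 9.48e-05). The change of −0.89 log2 in psae1-3 stn7-1 passed as well (adjusted p = 0.00832). None of the 3 passed in stn7-1, where all had an adjusted p of 0.297 or more.

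Of 13 cellulose synthesis genes 1 was tested, COB (AT5G60920), which encodes a wall protein that orients cellulose deposition. COB fell by 0.46 log2 in psad1-1 stn7-1 (adjusted p = 0.00528). Its change in psae1-3 stn7-1 was −0.56 log2 (adjusted p = 0.0149), and it did not pass in the single mutants. Of 10 auxin response genes 2 were tested, the Aux/IAA gene IAA29 (AT4G32280) and the homeobox gene HAT2 (AT5G47370). Both were lower in psad1-1 and psad1-1 stn7-1, as were 21.1% and 21.6% of all probe sets, in a list of 2. IAA29 changed by −1.44 and −1.87 log2 (adjusted p = 0.000851 and 2.67e-05), and HAT2 by −0.79 and −0.92 log2 (adjusted p = 0.00581 and 0.000778). IAA29 also fell in stn7-1, by 1.02 log2 (adjusted p = 0.0121), and neither gene passed in the lines with psae1-3. The lists of plasma membrane proton pumps, which acidify the wall (3 genes), gibberellin and brassinosteroid genes (12) and shade genes (6) had no single-gene probe set in the table used here.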

How the data were processed

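The deposited values are MAS5 signal intensities on a linear scale, 1 column per array, made by the authors with GCOS and MAS5 per the submitters' processing notes; no versions are given there. The authors' 2% trimmed mean is 100 in 11 arrays and 500 in 6, so each array was scaled to 100. Signals under the 10th percentile (1.57) were set to it and log2 values were taken. The 64 control probe sets and the 40% of the rest with the lowest mean were dropped, leaving 13648 of 22810. The model, with 1 coefficient for each genotype and all 17 arrays in it, was fitted in limma 3.58.1 under R 4.3.3 (moderated variances with a trend, 10 residual and 6.04 prior degrees of freedom). All tests were two-sided and adjusted by Benjamini-Hochberg over all tested probe sets; 95% intervals are unadjusted. Sample groups came from the genotype label. The number of arrays limits the precision.

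Gene names come from an annotation table with 1 gene for 13513 probe sets and several for 503, matched through gene identifiers to the RefSeq table of assembly TAIR10.1; the build behind the array annotation is not given, so no coordinates are printed. Members and gene lists were chosen with earlier results of these data known, and the array sets and scaling too. Every member is named; values in every array are given for those that passed in a comparison, with others where a result turns on them (EXPA16, EXLA2). Of the other lists, passing genes with the 3 highest and 3 lowest changes are named. No sequences are printed.

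The replicate letters A, B and C recur across genotypes. Deviations from the genotype means correlated at −0.22 to 0.27 between arrays of the same letter (45 pairs, 5 over 0.1), so the letters were not taken as pairs. These pairs include ones across the array sets. The 2 highest were 0.27 (Col-0 A and stn7-1 A) and 0.25 (Col-0 B and psad1-1 stn7-1 B). EXPB3 was lowest in replicate B in each first-set genotype. EXPA8 was so in Col-0 and stn7-1, but not in psad1-1 or psad1-1 stn7-1. The letter as a block was 1 of the alternatives. Alternatives were other scalings, floors, filters and model terms, and each array left out in turn.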

Additional observations from a re-analysis of the deposited data

Results flagged for a closer look

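The changes of 3 members passed a test of the difference between backgrounds. The EXPA8 change with stn7-1 was lower in psad1-1 than in Col-0 (interaction −1.08 log2, adjusted p = 0.0452), a call that was lost in 8 of 11 fits with 1 array left out and under 4 of 9 other settings. In a contrast added after the data were seen, it was lower in psae1-3 than in Col-0 (−1.43 log2, adjusted p = 0.00808), which was lost in 0 of 10 such fits and under 0 of 8 settings. In the same contrast EXLB1 was higher (1.43 log2, adjusted p = 0.0231), lost in 4 of 10 fits and under 2 of 8 settings. The psad1-1 change of EXPB1 was more negative than its psae1-3 change (−1.33 log2, adjusted p = 0.0132), lost in 1 of 9 fits, the one without Wassilewskija replicate B, and under 0 of 8 settings. The contrasts with psae1-3 join 2 array sets, and since the parent lines are not named, accession differences between lines cannot be told apart from them.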

How the results depend on the processing

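Across 23 member changes that passed, 345 values were recomputed under the alternatives; 267 passed again, 78 kept the direction but did not pass, and 0 reversed. Of the 23, 10 passed under every alternative and with any 1 array left out. Scaling to the array median moved the median of all probe sets by over 0.1 log2, from −0.02 to 0.12 in psad1-1, −0.11 to 0.06 in psae1-3, 0.01 to −0.10 between psae1-3 stn7-1 and psae1-3, 0.01 to −0.14 in the interaction and 0.05 to −0.16 in the added contrast, and the share of higher calls from 51.5% to 71.7% in stn7-1, from 47.8% to 63.6% in psad1-1, from 47.1% to 58% in psad1-1 stn7-1 and from 44% to 77.5% in psae1-3. It moved that share from 58.9% to 43.4% between psad1-1 stn7-1 and psad1-1, from 60.9% to 41.6% between psae1-3 stn7-1 and psae1-3, from 49.1% to 24.9% in the interaction and from 53.3% to 30.8% in the added contrast. Quantile normalization gave 55.4% in psae1-3.

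Counts of members that passed moved as follows. Without the filter, where 18 members were tested, the count was 1 (main 3) in stn7-1, 3 (5) in psad1-1, 3 (6) in psad1-1 stn7-1, 2 (1) in psae1-3, 0 (1) in the psad1-1 by stn7-1 interaction and 1 (2) in the added contrast of psae1-3. Scaling to the array median gave 1 (2) in psae1-3 stn7-1. The interaction count was also 0 under quantile normalization, with only the first set in the fit and without a trend. With 16 added to each signal it was 2, with 1 member higher and 1 lower. With 1 array left out the counts ran from 1 to 4 in stn7-1, 2 to 6 in psad1-1, 3 to 5 in psad1-1 stn7-1, 0 to 3 in psae1-3 stn7-1, 0 to 1 in the interaction, 0 to 3 in the difference between psad1-1 and psae1-3, and 1 to 4 in the added contrast. The count in psad1-1 was 3 without Col-0 replicate C or psad1-1 replicate A and 2 without psad1-1 replicate B, and in psad1-1 stn7-1 it was 3 without Col-0 replicate C or psad1-1 stn7-1 replicate A. With the replicate block the count was 3 in psad1-1, and over all probe sets the block gave 47 calls between psad1-1 stn7-1 and psad1-1 where 285 passed without it. Calls over all probe sets moved too, in stn7-1 from 2580 to 2077 without the filter. There, omitting Col-0 replicate B gave 1326, stn7-1 replicate A 1800 and stn7-1 replicate B 1452. Omitting Col-0 replicate A gave 2691, with 4 members. The calls without the filter were 5397 (main 5521) in psad1-1 and 5477 (5572) in psad1-1 stn7-1. In the interaction, quantile normalization gave 1762 (1610) while the member count fell to 0. The causes of these moves were not tested. Without the filter more probe sets enter the adjustment, and with 1 array left out fewer arrays enter the fit. Genes near the background of 8.15 in the second set are the least certain, since few readings define it there.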
